A study of Mus musculus with 2 samples.

Results

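CD8 T cells that carried RNA of inhibitory checkpoint receptors were taken from single-cell libraries of sorted tumour leukocytes. A cell barcode was a member when it held at least 1000 unique molecular identifiers (UMIs, each counting 1 captured RNA molecule) and at most 10% mitochondrial UMIs. It also needed at least 2 UMIs of Cd3d, Cd3e and Cd3g together, at least 1 of Cd8a and Cd8b1, 0 of Foxp3, and at most 0.4% of its UMIs from the myeloid genes Lyz2, C1qa, C1qb and C1qc. The last condition, and the one that set members apart from other CD8 T cells, was at least 2 UMIs of Pdcd1, Lag3 and Havcr2 summed. The rule found 315 members among 20520 barcodes that passed the bounds on UMIs and mitochondrial share, 107 of 8223 in the PBS library and 208 of 12297 in the 6C5 library. The study compared wild-type mice bearing B16-hAXL tumours, a mouse melanoma line labelled as carrying human AXL, that had been given either PBS or 200 µg of 6C5, an antibody against AXL, by the intraperitoneal route. CD45+ cells were sorted from tumours labelled day 15, and there was 1 library per treatment. How many mice each library pooled is not stated. No difference between the libraries could therefore be tested: intervals below are 95% intervals for counting error only, and treatment, library and mouse cannot be told apart.

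PD-1 (Pdcd1), LAG-3 (Lag3) and TIM-3 (Havcr2) are surface receptors that restrain T cells after repeated stimulation through the T-cell receptor. CD8 T cells that stay exposed to antigen, as in tumours, hold these receptors together with the transcription factor TOX, and lose the memory-type program led by TCF-1 (Tcf7). Such cells are often called exhausted, a state in which some killing genes stay on while cytokine output is reduced, and a TCF-1-positive subset is known to renew the others. A T cell's receptor is assembled from V gene segments, so cells descended from 1 parent carry the same segments.

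Members were deep cells. They held a median of 15077 UMIs and 3817 genes in PBS and 13666 UMIs and 3586 genes in 6C5, from lowest values of 2159 and 1682 UMIs to highest values of 68714 and 82844. CD8 T cells that met every other condition but held 0 or 1 receptor UMI, called CD8 T cells under the bound here, numbered 71 in PBS and 121 in 6C5 and had medians of only 4920.0 and 4831 UMIs. A bound on receptor UMIs thus also sorted cells by depth. The libraries shared 147 barcodes among all those with at least 1000 UMIs, and 0 among members. Members were so few that the 0 does not set them apart from the rest. Levels below are counts per 1000000 UMIs (CPM), from UMIs summed over the cells of a library, 1954366 in PBS and 3472559 in 6C5.

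The rule itself set the CD3 and CD8 RNA of the members, so these shares are a description. A Cd3e UMI was found in 99.1% of PBS and 98.1% of 6C5 members, a Cd8a UMI in 97.2% and 97.1%, and a Cd8b1 UMI in 93.5% and 94.7%. Of genes the rule did not use, a T-cell receptor beta-chain V gene had a UMI in 103 of 107 PBS and 193 of 208 6C5 members, and Cd4 had one in 1.87% and 2.40%. Markers of other cells were present too. Of 14 NK-cell markers, 12 had UMIs in each library, with Fcer1g, Tyrobp and Klrk1 the most abundant and Klra4 and Klra8 at 0. They summed to 0.0697% of PBS and 0.138% of 6C5 UMIs. Of 9 regulatory T-cell markers 7 had UMIs, summing to 0.0727% and 0.0712%, with Gpr83 and Foxp3, which the rule used, at 0. Macrophage and monocyte markers, all 16 of which had a UMI in both libraries, summed to 0.132% of PBS UMIs (0.00447% to 1.38% over cells) and 0.359% of 6C5 UMIs (0% to 2.42%). The 11 dendritic markers, which include MHC class II genes, summed to 0.428% and 0.412%, with highest cells at 5.16% and 6.98%. Melanoma markers summed to 0.00322% (Tyr and Cdh19 at 0) and 0.0408%. Members in which the B-cell, neutrophil, macrophage and monocyte, dendritic and melanoma lists together passed 0.4% of UMIs are called mixed cells: 25 of 107 in PBS (23.4%) and 69 of 208 in 6C5 (33.2%). By these lists 82 PBS and 139 6C5 members were not mixed. With Ly6c2, Cd74 and the H2 class II genes taken out of the lists, 102 and 160 were not mixed, so the label rests in part on these few genes. By the full lists, which are used below, the mixed cells had medians of 18861 and 20604 UMIs, the others 13325 and 12296. The main gene and list comparisons between the libraries are therefore given with and without them.

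Of the receptors, Pdcd1 was held most widely, and most members held more than 1 receptor. Pdcd1 (chr1:94038305-94052553, minus strand, mm10) had a UMI in 103 PBS members (96.3%) and 201 6C5 members (96.6%), with a median of 10 and 7 UMIs per cell and highest cells at 40 and 35. Lag3 (chr6:124904361-124911705, minus strand) had one in 79 PBS members (73.8%, interval 64.4% to 81.9%) and 180 6C5 members (86.5%, 81.1% to 90.9%). Havcr2 (chr11:46454935-46481255, plus strand) was the least widely held, with a UMI in 60 (56.1%) and 136 (65.4%). In B cells, which should lack these genes, the share with a UMI was at most 0.844% for each of them, at median depths of 2779 UMIs in PBS and 2576 in 6C5, well below the members'. Cells with all 3 receptors made up 45.8% of PBS members (49 cells, 36.1% to 55.7%) and 59.6% of 6C5 members (124 cells, 52.6% to 66.3%). Cells with 1 of the 3 were fewer, 21 in PBS (19.6%) and 23 in 6C5 (11.1%), and in 20 cells of each library that receptor was Pdcd1. The number of receptors found went with depth: cells with 1 had medians of 7430.0 and 8009 UMIs, and cells with all 3 had 17623 and 15556.

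Few cells lay at the edge of the rule. Just inside it, 9 PBS and 12 6C5 members held exactly 2 receptor UMIs, and 6 and 13 held 3. Just outside, 16 and 22 CD8 T cells held 1, while 55 and 99 held none. At the other end, 71 PBS and 135 6C5 members held 10 or more, and the highest cells held 53 and 46.

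**Figure D1:**
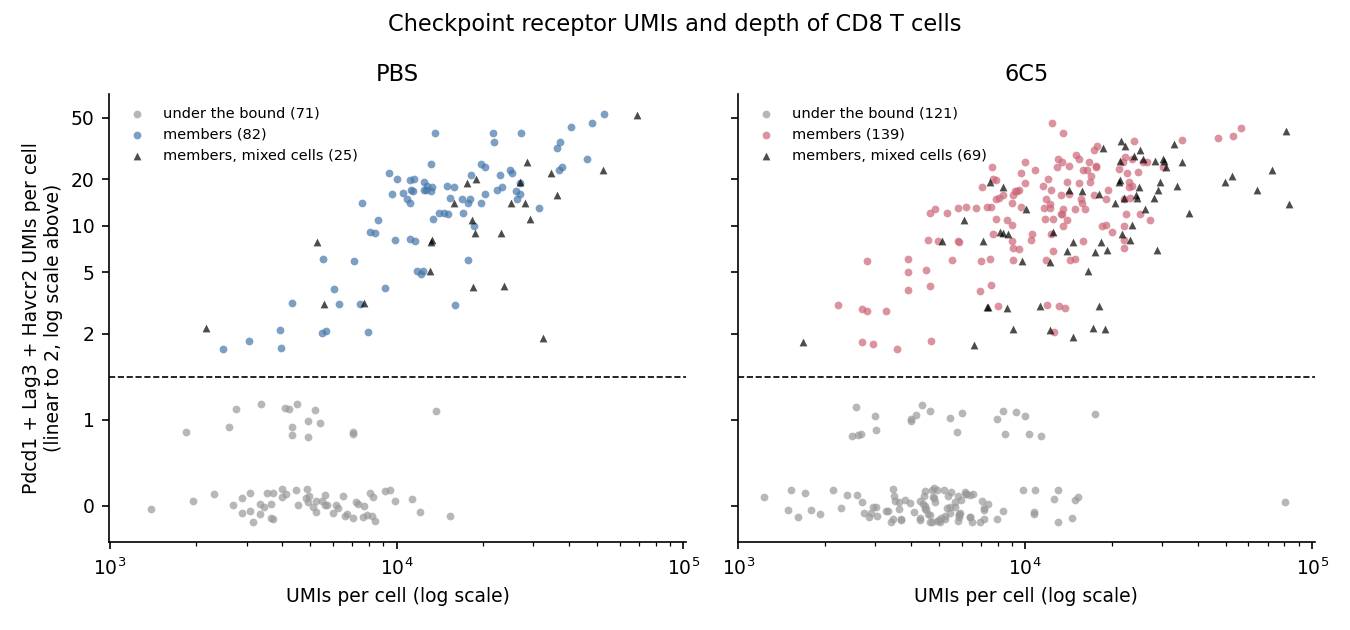
Each point is 1 CD8 T cell of the PBS (left) or 6C5 (right) library. The x axis gives its UMIs on a log scale and the y axis its summed Pdcd1, Lag3 and Havcr2 UMIs, linear to 2 and on a log scale above. The dashed line is the bound of at least 2 UMIs. Members lie above it and reach 53 (PBS) and 46 (6C5) receptor UMIs, and they also lie further right than the cells under the bound.

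Members made up a similar share of CD8 T cells in the 2 libraries. The share was 107 of 178 PBS cells (60.1%, 52.5% to 67.4%) and 208 of 329 6C5 cells (63.2%, 57.8% to 68.4%), with a ratio of 1.05 (0.909 to 1.22) for 6C5 over PBS. Against all barcodes with CD3 RNA the share was 18.7% of 573 PBS and 23.9% of 871 6C5 barcodes, giving 1.28 (1.04 to 1.57). Against all barcodes that passed the filters it was 1.30% and 1.69%, also a ratio of 1.30 (1.03 to 1.64). There were 2.74 members per regulatory T cell in PBS and 3.30 in 6C5. The interval for CD8 T cells thus held 1, while those of the wider shares, which move with every other sorted class, began above 1. All 3 intervals take each cell as an independent draw. The V genes below show that members were not, so the intervals do not set these shares apart.

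The clearest structure among members was in their T-cell receptor V genes, none of which the rule used. Of PBS members, 103 had a UMI of a beta-chain V gene (Trbv), and the leading gene (most UMIs in the cell) was Trbv5 in 28 cells, Trbv2 in 28, Trbv13-1 in 15 and Trbv3 in 9. Of 6C5 members, 193 had one, led by Trbv5 in 78 cells, Trbv20 in 60, Trbv13-1 in 18, Trbv29 in 7 and Trbv1 in 7. The 3 commonest genes covered 68.9% of PBS and 80.8% of 6C5 members with a Trbv UMI. Among CD8 T cells under the bound the same figure was 36.9% and 31.1%, led by Trbv3 in 13 of 65 cells (20.0%) in PBS and by Trbv13-1 in 12 of 103 (11.7%) in 6C5. Trbv5 (chr6:41062332-41062803, plus strand) and Trbv13-1 were common to members of both libraries. Trbv2 (chr6:41047340-41047995) led in PBS alone of the 2 libraries' members, and Trbv20 (chr6:41188273-41188977) was its counterpart in 6C5.

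**Figure D2:**
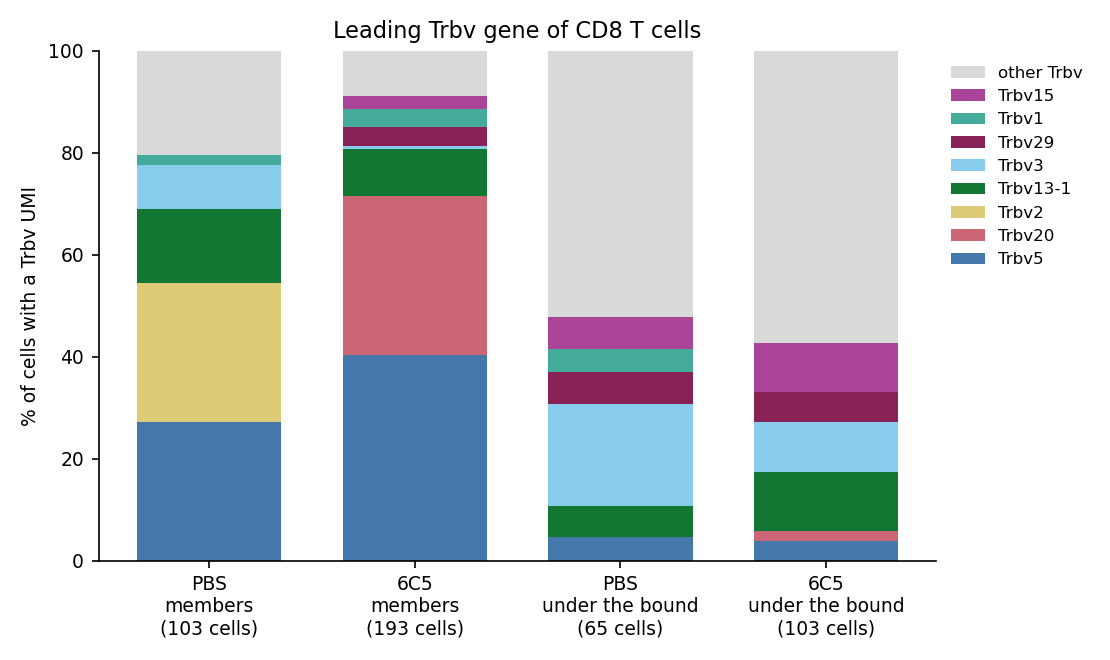
Stacked bars give the percent of cells with a Trbv UMI that were led by each Trbv gene, for members and for CD8 T cells under the bound in each library. Trbv5, with 28 of 103 PBS members and 78 of 193 6C5 members, and Trbv2 or Trbv20 fill most of the member bars, and no gene leads more than 20.0% of the cells under the bound.

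Adding the alpha-chain V gene (Trav) sharpened this. Of the 85 PBS members with both chains, 16 paired Trbv2 with Trav12-2, and 11 each paired Trbv13-1 with Trav4-4-dv10, Trbv5 with Trav10n, and Trbv2 with Trav12-3. Another 9 paired Trbv3 with Trav3-3. Of the 154 such 6C5 members, 54 (35.1%) paired Trbv20 with Trav7-3, 29 (18.8%) paired Trbv5 with Trav12-3, and 18 (11.7%) paired Trbv5 with Trav8d-2. The commonest partner of Trbv5 therefore differed between the libraries. Drawing any 2 members of a library gave the same leading pair in 9.13% of draws in PBS and 17.3% in 6C5. For CD8 T cells under the bound it was 0.505% and 0.317%, for conventional CD4 T cells 0% and 0.866%, and for regulatory T cells 0.529% and 1.16%. Further beta genes accompanied some groups: Trbv15 was found in 40 of 78 Trbv5-led 6C5 members, Trbv12-1 in 28 of 60 Trbv20-led 6C5 members, and Trbv24 in 11 of 15 Trbv13-1-led PBS members. Members are thus not independent draws of cells in either library. V genes without the junction sequence do not identify a clone, and reads of near-identical V genes may have been split between paralogs by the counting.

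Members and cells under the bound were next compared across all genes. The rule chose members by their receptor UMIs, so this contrast is a description of what travelled with those receptors and with the depth of the cells. A gene is counted here when its CPM differed at least 1.5-fold in the same direction in both libraries, among the 6820 genes with at least 100 UMIs over the 4 sums. Of these, 15.8% were higher and 7.29% were lower in members, and the median log2 ratio of all of them was 0.16 in both libraries. The list counts of this comparison are to be read beside these shares.

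Genes of the progenitor and memory program were lower in members: 12 of 17 measured were lower and 0 were higher, with median log2 ratios of -3.03 in PBS and -2.13 in 6C5. Tcf7 (chr11:52252371-52283014, minus strand), the TCF-1 gene, stood at 27.6 CPM in PBS and 11.8 CPM in 6C5 members against 339.8 and 265 CPM under the bound, ratios of 0.0813 (0.0582 to 0.112) and 0.0446 (0.0310 to 0.0627). A Tcf7 UMI was found in 13.1% and 7.69% of members, against 67.6% and 62.0% of the shallower cells under the bound. Lef1, the related factor, was at 23.5 and 16.7 CPM against 274 and 263. Il7r, the survival receptor for IL-7, was at 14.8 and 59.0 CPM against 256 and 336. Satb1, a chromatin organiser of the early T-cell lineage, was at 14.8 and 16.7 CPM against 332 and 333. Slamf6, a marker of the TCF-1-positive progenitor subset, was low in every group, with 7.16 and 11.2 CPM in members and 58.3 and 48.1 under the bound. Members were low in all these genes in both libraries.

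Other inhibitory receptors were mixed. Of 15 measured, 5 were higher in members of both libraries and 0 lower. Ctla4, which competes with CD28, reached 308 CPM in PBS members and 244 CPM in 6C5 members, against 27.9 and 62.9 under the bound. Tigit, which competes with CD226 for its ligands, was at 293 and 366 CPM against 93.8 and 80.2. Entpd1, the CD39 ectonucleotidase, was at 71.6 and 85.0 CPM against 30.4 and 18.7. Cd200r1 and Klrc1 were the other 2, while Lilrb4a differed by less than 1.5-fold in each library. Regulatory T cells exceeded members in Ctla4 (1184 and 1658 CPM) and Tigit (526 and 588 CPM). Their Pdcd1 was at 239.5 and 253 CPM, against 605 and 481 in members. The rule chose members partly on Pdcd1 and regulatory T cells had no such bound, so that gap is a description only.

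Of 14 exhaustion-linked transcription factors measured, 6 were higher in members (Tox, Nr4a2, Prdm1, Rbpj, Bhlhe40 and Id2) and 0 lower. Tox (chr4:6686353-6991557, minus strand) reached 411 CPM in PBS members and 476 CPM in 6C5 members, against 142 and 85.6 under the bound, ratios of 2.90 (2.21 to 3.87) and 5.56 (4.33 to 7.26). A Tox UMI was found in 87.9% and 93.8% of members. Regulatory T cells came close to this level, with 364 and 316 CPM. Nr4a2, induced by T-cell receptor signals, was at 559.8 and 487 CPM against 271 and 128. Eomes did not follow: at 21.5 CPM in PBS members it was below the 53.3 of cells under the bound, and at 45.5 in 6C5 members above their 28.1.

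Of the killing genes, Gzmb and Prf1 were the 2 of 11 that were higher in both libraries, beside 15.8% of all genes. Gzmb, encoding granzyme B, was at 449 and 756 CPM against 149.6 and 205, and Prf1, the pore-former perforin, at 178 and 232 against 33.0 and 29.4. Gzmk was within 1.5-fold in PBS, with 114 CPM against 107, and 2.20-fold higher in 6C5 (1.63 to 3.05). Among costimulatory receptors, 2 of 12 were higher, again near the 15.8% of all genes, and both were of the TNF receptor family. Tnfrsf9 (4-1BB) was at 718 and 686 CPM against 78.6 and 88.3, and Tnfrsf4 (OX40) at 153 and 118 against 7.61 and 9.36. Regulatory T cells exceeded members in both, with Tnfrsf9 at 829 and 867 CPM and Tnfrsf4 at 921 and 1167. Conventional CD4 T cells held Tnfrsf9 at 57.3 and 213 CPM and Tnfrsf4 at 123 and 557. For homing genes, Cxcr6, a receptor of tissue-resident T cells, was at 244 and 289 CPM against 71.0 and 74.9, and Rgs16, which dampens chemokine receptor signals, at 376 and 356 against 27.9 and 26.7. Cxcr3, the receptor for CXCL9 and CXCL10, was lower in members, at 37.4 and 20.2 against 132 and 46.8.

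Cytokine genes split by library. Csf1, Il10 and Ccl1 were higher in members of both libraries, the last resting on 4 PBS and 6 6C5 cells. Ifng was at 304 CPM in PBS members against 30.4 under the bound, a ratio of 9.99 (5.68 to 19.4), but in 6C5 it was at 117 against 78.9, a ratio of 1.49 (1.13 to 1.99). Ccl3 showed the same form, 776 against 63.4 CPM in PBS and 497 against 453 in 6C5. Mixed cells were common under the bound too, 40.8% in PBS and 48.8% in 6C5. With mixed cells left out of both classes, the Ccl3 log2 ratios were 3.48 in PBS and 1.87 in 6C5.

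Several of the widest differences were in genes outside the lists above. Nrgn, a calmodulin-binding protein best known from neurons, was at 341 and 362 CPM in members against 7.61 and 14.7, ratios of 44.9 (15.3 to 218) and 24.6 (13.7 to 49.4). It had a UMI in 70.1% and 73.6% of members and in 2.82% and 4.13% of cells under the bound. Nrn1 was at 114 and 64.8 CPM against 5.07 and 1.34. Gldc, the glycine decarboxylase of mitochondria, was at 46.6 and 44.9 against 0 and 2.67. Cdkn2a, a cell-cycle inhibitor locus that is silent in most resting cells, was at 87.5 and 68.2 against 2.54 and 6.69. Ltf, which encodes lactoferrin and is best known from neutrophils, and Serpine2, a serpin, were at 22 and 18.4 CPM in PBS members and 105 and 67.4 in 6C5 members, and each had at most 1.34 CPM under the bound. Of 8 neutrophil markers, 5 had UMIs in PBS and 6 in 6C5 members, with S100a9 the most abundant. They summed to 0.00240% of PBS and 0.00573% of 6C5 member UMIs, with highest cells at 0.0372% and 0.455%. An S100a8 UMI was found in 4.67% and 8.65% of members, while Cxcr2 and Mmp9 were at 0 in both libraries. Whether neutrophil RNA added to Ltf was not tested.

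The cell cycle list differed most in number: 36 of 45 genes were higher in members of both libraries and 0 lower. Mki67 was at 179 and 139.7 CPM against 48.2 and 66.9. Depth matters for a share of cells with list UMIs, so each cell was thinned to 1000 UMIs. At least 3 UMIs of the list, called the cell cycle bound here, were then found in 68.2% of PBS members (58.5% to 76.9%) and 68.8% of 6C5 members (62.0% to 75.0%), against 40.8% and 33.9% under the bound. At full depth the share was 99.1% and 100%, against 97.2% and 95.9%. After thinning the share was 61.5% and 58.7% in regulatory T cells and 52.9% and 41.2% in conventional CD4 T cells. A Mki67 UMI was found in fewer members, 53.3% and 46.2% at full depth and 7.48% and 12.5% after thinning, so the bound is a reading of the list and not a count of dividing cells. Interferon-stimulated genes leaned the other way: 11 of 30 were lower in members and 1 was higher. Free RNA was estimated at 2.38% and 23.1% of the UMIs of cells under the bound, against 1.30% and 8.33% in members, and its part in that lean was not tested. The estimate was scaled on melanoma and haemoglobin genes, so melanoma RNA of mixed cells enters it. Of the remaining lists, 4 of 5 regulatory T-cell markers were higher (Il2ra, Ctla4, Tnfrsf4 and Ccr8). So were 7 of 35 oxidative phosphorylation genes, near the 15.8% of all genes. Of 23 heat-shock and dissociation genes, 6 were lower, beside 7.29% of all genes. MHC class I genes passed the bound in neither direction, 0 of 9.

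**Figure D3:**
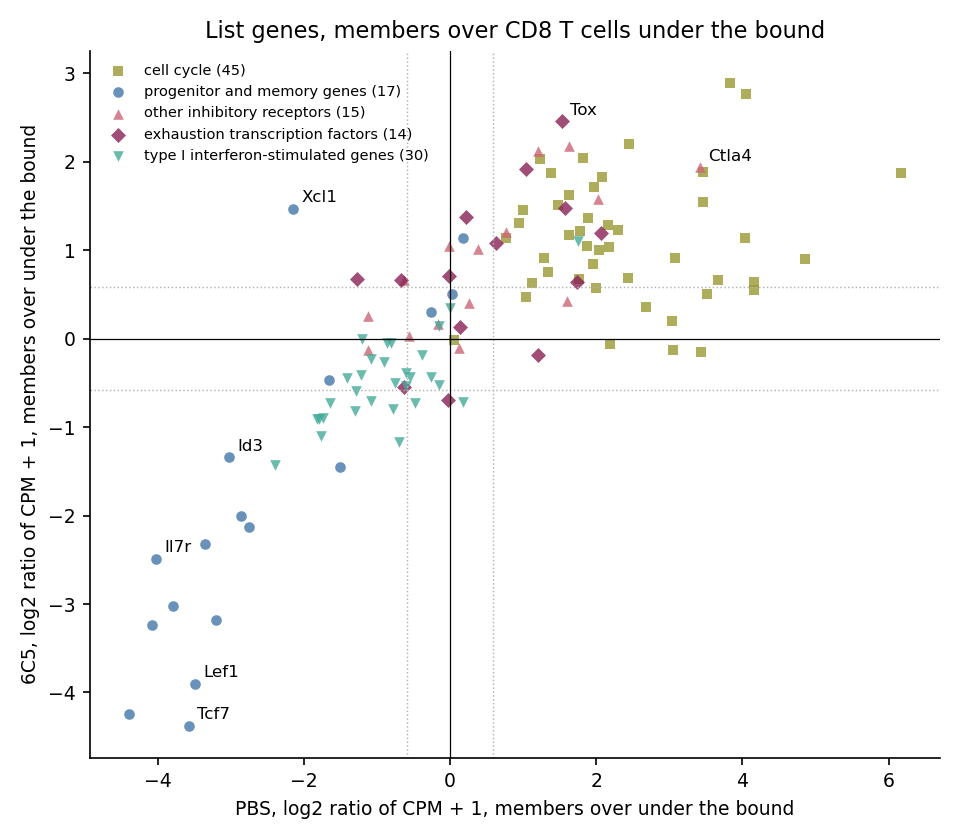
Each point is a gene of 1 of the lists shown. The axes give its log2 ratio of CPM plus 1, members over CD8 T cells under the bound, in PBS (x) and 6C5 (y). Progenitor and memory genes sit at the lower left, with medians of -3.03 and -2.13, and most cell cycle genes at the upper right.

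This picture depended on how the receptor bound was applied. With each cell thinned to 1000 UMIs before the bound was applied, at 1 receptor UMI, 58 PBS and 131 6C5 members were left. Then 354 genes passed 1.5-fold in both libraries, 96 higher and 258 lower, in place of 1077 higher and 497 lower. Members that lost all their receptor UMIs by thinning were counted as under the bound here. That brings the classes closer by construction, so the part of depth was not tested.

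Within CD8 T cells the receptors and Tcf7 ran in opposite directions by steps. In PBS, Tcf7 stood at 382 CPM in cells with 0 receptor UMIs, 174 with 1, 87.4 with 2 to 3, 50.0 with 4 to 9 and 19.6 with 10 or more. In 6C5 the series was 290.3, 152, 41.4, 31.7 and 5.52 CPM. Tnfrsf9 climbed over the same bins, from 66.9 to 124, 262, 604 and 769.6 CPM in PBS and from 60.7 to 210.1, 276, 563 and 743 in 6C5. Gzmb in 6C5 went from 148 to 456, 400.0, 602 and 815 CPM, so members just inside the bound (400.0) did not exceed cells with 1 receptor UMI (456) in this gene. Median depth differed along the same axis, from 5233 and 4831 UMIs in cells with 0 receptor UMIs to 18669 and 16844 in cells with 10 or more, and its part in the steps was not tested.

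Members also differed among themselves by V gene pair. In PBS, the 11 members that paired Trbv13-1 with Trav4-4-dv10 stood apart from the other pairs. They held Ccl5, a chemokine of effector cells, at 6979 CPM against 1513 to 2333 in the other 4 PBS pairs, and Gzmk at 479 against 20.2 to 65.3. Their Mki67 was at 404 CPM against 98.4 to 196, and their Cxcr3 at 116 against 0 to 27.0. They were low in Havcr2, at 30.3 CPM against 111 to 156, and in Nrgn, at 20.2 against 391 to 710.3. Their Pdcd1, at 681 CPM, lay within the 555 to 748 of the others, and their Tox, at 560.1, lay just above the 412 to 547 of the others. Their Tcf7, at 55.5 CPM, came from 1 of the 11 cells.

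In 6C5, the 2 Trbv5 pairs differed from each other. The 29 cells with Trav12-3 held Ccl5 at 6783 CPM, Gzmb at 989.8 and Prf1 at 449. The 18 cells with Trav8d-2 held 2966, 507 and 135 CPM of these genes, but more Ifng, at 246 CPM against 105. The 54 cells that paired Trbv20 with Trav7-3 lay between them for Prf1 (244 CPM) and Gzmb (879.5 CPM). They also held Ltf at 229 CPM, with a UMI in 19 of 54 cells, against 5 of 29 and 0 of 18 in the Trbv5 pairs. All 3 large 6C5 pairs had Lag3 at 297 to 490.3 CPM, against 141 to 310.1 in the PBS pairs, ranges that just overlap.

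**Figure D4:**
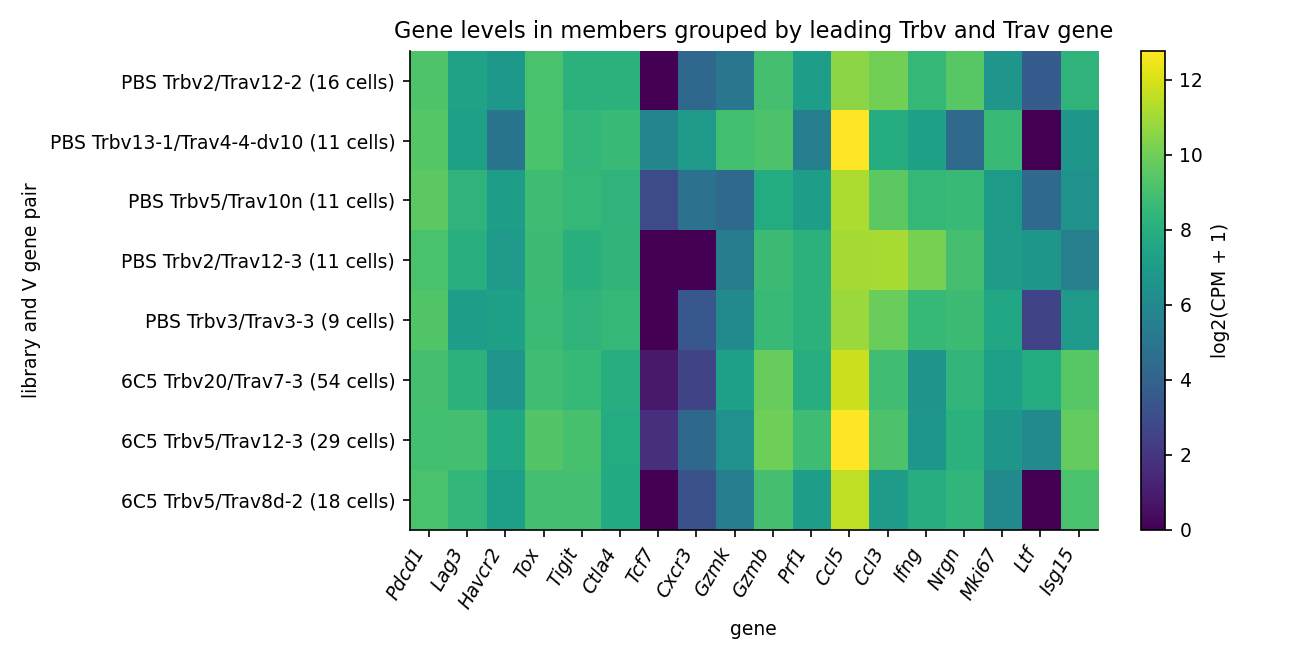
Each line is 1 pair of leading Trbv and Trav genes within a library, with its number of members, and each column a gene, coloured by log2 of summed CPM plus 1. The PBS pair of Trbv13-1 and Trav4-4-dv10 is bright for Ccl5 (6979 CPM) and Gzmk (479 CPM) and dark for Nrgn (20.2 CPM).

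Differences between the libraries were then read across all genes measured in members, with at least 100 UMIs over both libraries. Of 6210 genes, 9.65% were at least 1.5-fold higher in 6C5 (599) and 4.98% were lower (309), and the median log2 ratio was -0.01. Without mixed cells 4403 genes had enough UMIs, 4.75% were higher (209) and 3.95% lower (174). The list counts between the libraries are to be read beside these shares of all genes. Of the 206 genes that were higher with all members and still measured, 113 stayed 1.5-fold higher without mixed cells. Of the 220 lower ones 118 stayed lower, and 3 genes passed the bound in opposite directions.

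Of the receptors that define the cells, Lag3 was higher in 6C5 and Pdcd1 was somewhat lower. Lag3 went from 156 CPM (139 to 175) in the PBS members to 299 (281 to 318) in the 6C5 members. That is a 6C5 over PBS ratio of 1.92 (1.69 to 2.19), or 2.09 (1.80 to 2.42) without mixed cells. Pdcd1 went from 605 CPM (571 to 640) to 481 (459 to 505), a ratio of 0.796 (0.739 to 0.858), or 0.870 (0.798 to 0.95) without mixed cells. These ratios are among cells chosen on the sum of the same receptors. Havcr2 had a ratio of 1.27 with and without them. Tox was within 1.5-fold, with a ratio of 1.16 (1.06 to 1.26), and of 1.35 (1.23 to 1.49) without mixed cells. Leaving out the members past the cell cycle bound after thinning kept 28 PBS and 66 6C5 members. The Lag3 log2 ratio was then 0.49 in place of 0.93, below 1.5-fold, and that of Pdcd1 was -0.65 in place of -0.33, past it. Of 15 other inhibitory receptors, 3 (Vsir, Cd274 and Lilrb4a) were higher in 6C5 and 1, Klrc1, was lower, beside 9.65% and 4.98% of all genes. Without mixed cells Vsir was higher and Cd200r1 lower among 12 measured, and the Lilrb4a ratio went from 2.76 to 0.936.

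Type I interferon-stimulated genes showed the broadest difference: 26 of 29 measured were higher in 6C5 and 0 lower, with a median log2 ratio of 1.21. Without mixed cells 12 of 17 were higher, and the median was 0.85. Ly6c2, which is in this list, also helped define mixed cells. Isg15 (chr4:156199424-156200818, minus strand), a ubiquitin-like protein, went from 161 to 783 CPM, a ratio of 4.87 (4.33 to 5.49), and without mixed cells from 72.6 to 199 CPM, a ratio of 2.74 (2.20 to 3.46). Ifi27l2a was the most abundant of them in members, at 940.5 and 2744 CPM. Its ratio was the same without mixed cells, 2.94 (2.76 to 3.13) against 2.92 (2.77 to 3.07). Irf7, the transcription factor that amplifies interferon production, had a ratio of 3.69 (3.09 to 4.44), and of 1.94 (1.41 to 2.72) without mixed cells. List genes were higher in 6C5 in other lymphocytes too, with mixed cells kept in. Among CD8 T cells under the bound 13 of 21 were higher (median log2 ratio 1.02), beside 14.9% of all genes measured there. The count was 6 of 7 among CD4 T cells (1.33), beside 14.2%, 16 of 22 among regulatory T cells (0.74), beside 10.1%, and 5 of 14 among B cells (0.50), beside 13.6%. Across V gene pairs, Ifi27l2a was at 244 to 1651 CPM in PBS and 2397 to 4016 in the 3 large 6C5 pairs. Free RNA was estimated at 1.30% of PBS and 8.33% of 6C5 member UMIs, and with the expected free RNA subtracted 26 of 29 list genes were again higher, with the median at 1.21. That estimate counts melanoma RNA of mixed cells as free RNA. Melanoma markers, which helped define mixed cells, summed to 0.0408% of 6C5 member UMIs and 0.00369% without mixed cells. The subtraction therefore does not separate free RNA from mixed cells.

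Interferon-stimulated genes share a promoter element, so the promoters of the list were searched on either strand for the letters GAAA repeated after 2 bases of any kind. RefSeq promoters on GRCm38.p6, from 250 bases before to 50 after the start, were matched for 23 list genes, of which 12 held a match (52.2%). Over all 27025 genes in the table the share was 3.99%. Of 9 list genes with a promoter there that were higher in 6C5 both with and without mixed cells, 3 held a match. Their matched stretches upstream of the start are shown 5′ to 3′ on the gene's strand. These 3 genes were picked for their match and do not stand for the list. Matches are in capitals, overlapping matches run together, and TTTC marks a match on the opposite strand.
Isg15: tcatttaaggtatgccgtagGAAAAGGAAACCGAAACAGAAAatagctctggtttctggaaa
Oas1a: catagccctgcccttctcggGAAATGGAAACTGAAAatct
Trim30a: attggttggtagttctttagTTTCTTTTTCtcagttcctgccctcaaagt
The Isg15 stretch (chr4:156200855-156200916, minus strand) holds 3 overlapping matches that begin 78, 72 and 66 bases before the start. The Oas1a stretch (chr5:120907526-120907565, minus strand) holds 2, beginning 20 and 14 bases before it, and the Trim30a stretch (chr7:104465200-104465249, minus strand) holds 1, beginning 36 bases before it. Oas1a, which makes the activator of RNase L, went from 29.2 to 93.0 CPM (21.1 to 50.1 without mixed cells), and Trim30a from 58.8 to 133 CPM (53.7 to 115 without them). A match is a description of letters and shows no binding.

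Of 11 cytotoxic genes measured, 4 were higher in 6C5 with all members (Gzmb, Serpinb6b, Serpinb9 and Lamp1), beside 9.65% of all genes. Without mixed cells 4 of 11 were higher, with Nkg7 in place of Lamp1, beside 4.75%, and 0 were lower in either reading. Gzmb went from 449 CPM in PBS members to 756 CPM in 6C5 members, 1.68-fold (1.56 to 1.82), and 1.82-fold (1.67 to 1.98) without mixed cells. It had a UMI in 75.7% of PBS and 83.2% of 6C5 members. Its log2 ratio of 0.75 dropped below 1.5-fold, to 0.57 without Trbv2-led and Trbv20-led members and to 0.51 without members past the cell cycle bound. Serpinb6b and Serpinb9, serpins that inhibit granzymes inside the cell, had ratios of 2.63 (2.09 to 3.34) and 1.59 (1.33 to 1.89), and of 2.66 and 1.54 without mixed cells. Nkg7, a granule protein of killer cells, passed 1.5-fold only without mixed cells, at 1.52 (1.45 to 1.59). Lamp1, a lysosomal membrane protein, passed it only with them, at 2.05 against 0.748 without. Prf1 stayed below the bound, with 178 and 232 CPM and ratios of 1.31 (1.15 to 1.48) and, without mixed cells, 1.44. Gzma rested on few cells: 8.17% of 6C5 members had a UMI, and 1 of them held 70.1% of that library's Gzma UMIs.

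Cytokine and chemokine genes were where mixed cells mattered most. With all members, 5 of 12 were higher in 6C5 and 3 lower, beside 9.65% and 4.98% of all genes. Their median log2 ratio was 0.09. Without mixed cells, 2 of 10 were higher and 5 lower, beside 4.75% and 3.95%, with a median of -0.72. Ccl5, which went from 2459.6 to 3874 CPM, was higher in both readings, with ratios of 1.57 (1.52 to 1.63) and 1.67 (1.60 to 1.73). Its log2 ratio of 0.65 dropped below 1.5-fold, to 0.53 without Trbv2-led and Trbv20-led members and to 0.35 without members past the cell cycle bound. Ifng, the cytokine that drives MHC expression, was lower in both, at 304 and 117 CPM, with ratios of 0.386 (0.339 to 0.438) and 0.491 (0.422 to 0.570). An Ifng UMI was found in 66.4% of PBS and 53.8% of 6C5 members. Ccl3, a chemokine of activated lymphocytes and myeloid cells, was lower in both, with ratios of 0.641 and 0.492. Both ratios changed with the V gene groups included. With Trbv2-led and Trbv20-led members left out, the log2 ratio of Ifng moved from -1.37 to -0.46 and that of Ccl3 from -0.64 to 0.017, and within Trbv5-led members they were -0.068 and 0.41. Ccl4 turned, from 1.26 (1.20 to 1.31) with all members to 0.475 (0.439 to 0.514) without mixed cells. Tnf turned too, from 2.34 (2.05 to 2.69) to 0.632 (0.363 to 1.09), and so did Cxcl10, from 1.84 to 0.147 (0.103 to 0.204). Xcl1, a chemokine that attracts cross-presenting dendritic cells, had a ratio of 2.41 (2.11 to 2.77), and of 3.06 without mixed cells, although a UMI was found in 21.5% of PBS and 12.5% of 6C5 members. The top cell held 21.3% and 30.8% of its UMIs, and with members past the cell cycle bound left out the Xcl1 log2 ratio turned to -0.58. For Ccl1, 1 cell in each library held 90.4% and 89.4% of its UMIs, and without those cells the Ccl1 log2 ratio was -1.27 in place of -1.51.

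The 10 genes with at least 200 UMIs that were furthest above PBS in 6C5 included Mmp12, Ccl12, Hmox1, Slfn4, Acod1 and Ccl2, genes best known from macrophages and monocytes. Ccl12 had a ratio of 18.4 (10.8 to 33.9) with all members and 0.968 (0.294 to 3.38) without mixed cells, and Ccl2 had 9.66 and 0.849. Mmp12 had 218 UMIs in 6C5 and 0 in PBS, of which 1 cell held 78.0%. Hmox1 had ratios of 14.7 and 2.32, while Acod1 stayed at 11.4 without mixed cells, from counts too low to be measured there. Macrophage and monocyte markers moved the same way, 11 of 16 higher with all members and 1 of the 3 still measured without mixed cells. This list helped define mixed cells, so it loses UMIs by construction when they are left out.

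Among genes that did not rest on mixed cells, Ltf and Serpine2 were the furthest apart. Ltf went from 22 to 105 CPM, 4.79-fold (3.49 to 6.73), and 9.37-fold (6.00 to 15.4) without mixed cells. With the members past the cell cycle bound left out its log2 ratio turned to -0.42. That reading kept 28 PBS and 66 6C5 members, and the 107 PBS members together held only 43 Ltf UMIs, in 14 cells. Serpine2 went from 18.4 to 67.4 CPM, with ratios of 3.66 (2.57 to 5.35) and 8.03 (4.73 to 14.7), and had a UMI in 11.2% of PBS and 34.1% of 6C5 members. Leaving out Trbv2-led and Trbv20-led members took the log2 ratios of Ltf and Serpine2 from 2.21 and 1.82 to 1.67 and 1.29. Within Trbv5-led members they were 1.03 and 1.59. Cdkn1a, the p21 cell-cycle inhibitor, had ratios of 2.52 and 2.37. Ap3b1, an adaptor subunit needed for lytic granule transport, had 2.13 and 2.30, and Mxi1, an antagonist of MYC, 2.04 and 2.21.

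The 10 genes furthest below PBS in 6C5 were lower with and without mixed cells. They were Serpina3g, Ccl1, Ifng, Cd6, Myc, Mef2c, Mta1, Dscam, Cd5 and Tmem97. Serpina3g, an interferon-induced serpin of lymphocytes that inhibits cathepsins, went from 274 to 82.6 CPM, a ratio of 0.301 (0.260 to 0.348), and of 0.252 (0.206 to 0.307) without mixed cells. It had a UMI in 82.2% of PBS and 45.7% of 6C5 members. Of the T-cell receptor signalling list, Myc, Cd5 and Cd6 were lower and Egr1 and Egr2 higher among 19 measured. Over all genes 4.98% were lower and 9.65% higher, so the higher count (10.5%) was near that share. Without mixed cells the same 3 were lower and Egr1 higher among 16, beside 3.95% and 4.75% of all genes. Cd5, a surface brake on T-cell receptor signals, went from 131 to 59.0 CPM, with a ratio of 0.451 (0.373 to 0.544), or 0.536 (0.423 to 0.678) without mixed cells. Cd6, its relative, had ratios of 0.398 and 0.528, and Myc, the growth factor-induced transcription factor, 0.401 and 0.429. Within Trbv5-led members alone the Myc log2 ratio was 0.072, while those of Cd5, Cd6 and Serpina3g were -1.82, -2.50 and -2.33. Srm and Shmt2 were named after their values were seen: Srm, the spermidine synthase, had ratios of 0.490 and 0.491, and Shmt2, a mitochondrial serine enzyme, 0.467 and 0.501. The transcription factor gene Mef2c had 0.413 and 0.363, and Dscam, an adhesion gene best known from neurons, 0.439 and 0.523.

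**Figure D5:**
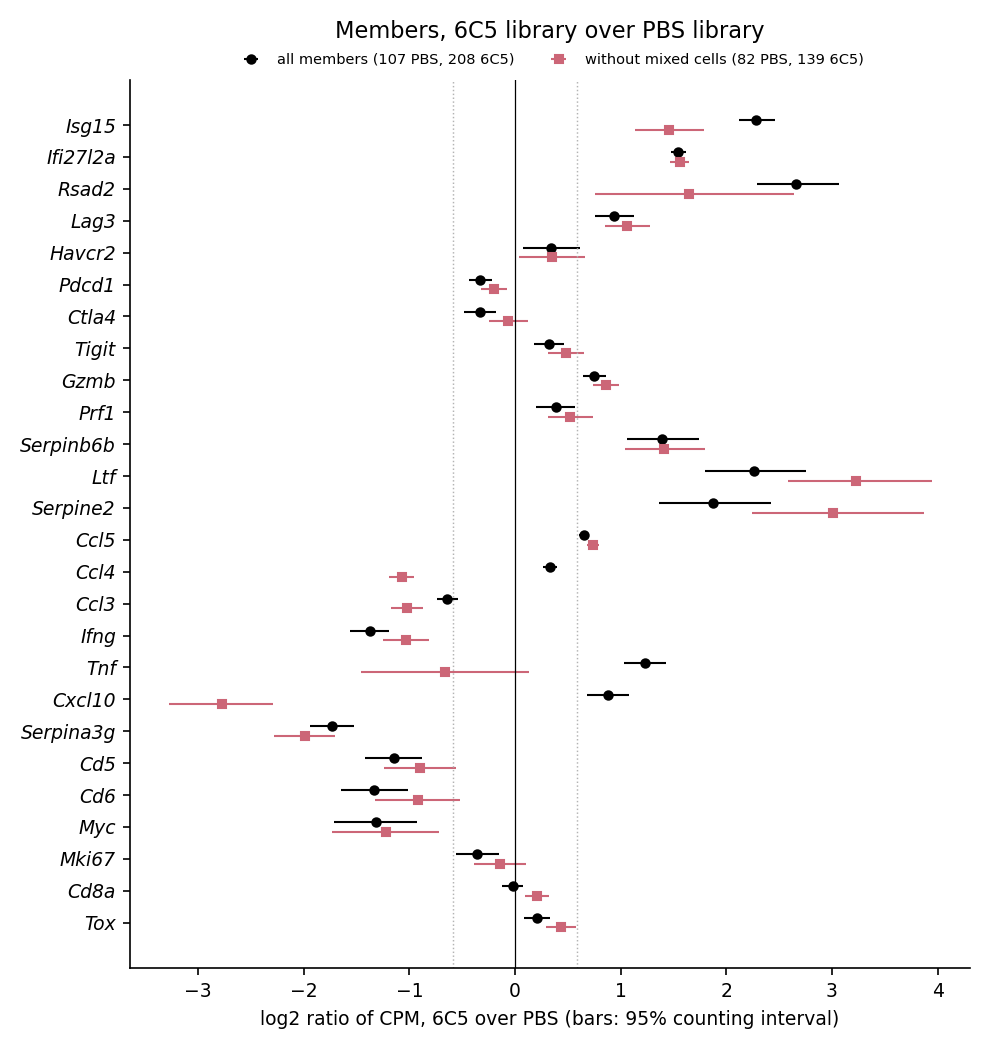
Points give the log2 ratio of CPM, 6C5 over PBS, for named genes in all members and in members without mixed cells, with bars for 95% counting intervals. Ifng and Serpina3g lie left of 0 in both readings and Isg15, Ltf and Gzmb right of it, while Tnf, Ccl4 and Cxcl10 change sides.

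The cell cycle list differed little by share of cells and somewhat by level. The share of members past its bound after thinning was 68.2% and 68.8%, yet the list's median share of a cell's UMIs was 0.782% in PBS (0% to 2.65%) and 0.444% in 6C5 (0.0545% to 2.99%). Of 45 cell cycle genes, 7 were lower in 6C5 and 0 higher with all members, and 3 lower without mixed cells (Cdc20, Uhrf1 and Tuba1b). MHC class I genes (0 of 9) and oxidative phosphorylation genes (0 of 35) did not pass 1.5-fold in either direction, with or without mixed cells. Of the interferon-gamma response list, 5 of 22 were higher with all members and 0 of 15 without mixed cells. Heat-shock and dissociation genes were higher in 7 of 23, and in 5 of 21 without mixed cells, with Hspa1a at 58.3 and 139 CPM. The part of tissue handling in the heat-shock and dissociation genes was not tested. For the lists in this paragraph, all genes stood at 9.65% higher and 4.98% lower with all members. Without mixed cells they stood at 4.75% and 3.95%.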

How the data were processed

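The members and the gene lists were chosen with earlier results of these data known. Per the labels' protocols, CD45+ tumour cells had been sorted by flow cytometry and sequenced with a 10x Genomics Chromium kit. For 32285 genes, what was deposited is UMI counts of every barcode, with neither cell filtering nor normalization. Cell Ranger 7.1.0 made them per the file headers, while the submitters' processing notes name 2.1.1 and mm10. Whether intronic reads entered, and which end was read, is not stated in the sources used here. Library totals were 78923567 UMIs (PBS) and 85921419 (6C5).

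UMIs were summed over the cells of a class and scaled to CPM (python 3.11.15, numpy 2.4.6, pandas 2.3.3, scipy 1.17.1). Ratios have exact conditional binomial 95% intervals, shares Clopper-Pearson intervals and levels Poisson intervals. List medians use log2 of CPM plus 1. With 1 library per group nothing was tested, and a gene counts as higher or lower from 1.5-fold with at least 100 UMIs. The ratio calculation was checked on simulated counts with known folds. Named genes were those of the rule, a fixed set, the 4 with the widest library ratios in each of the 28 lists, and the 10 highest and lowest with at least 200 UMIs in each comparison. Serpinb6b, Cdkn1a, Ap3b1, Mxi1, Shmt2, Srm, Hspa1a and Cxcl10 were added after the data were seen, as extremes without mixed cells, and genes named as list members were picked from their list. Of 486 list genes 481 are in the table; Znf683, Mx1, Mx2, Trgc1 and Trgc2 were not analysed here. Conventional CD4 T cells held CD3 and Cd4 RNA but no Cd8 or Foxp3, regulatory T cells CD3 and Foxp3 but no Cd8, and B cells at least 3 UMIs of Cd79a, Cd79b and Ms4a1. No doublet caller was run, and mixed cells may include doublets. Free RNA profiles came from barcodes with 10 to 100 UMIs. The free RNA share of a class was scaled on Pmel, Mlana, Tyrp1, Dct and haemoglobin genes, with mixed cells kept in. Alternatives covered the rule's bounds, depth, mixed cells, scaling (including TMM factors of edgeR 4.0.16), free RNA, the gene filter and the fold bound, with 5 chosen after seeing the data. Gene positions are from GENCODE vM21 (GRCm38, mm10).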

Additional observations from a re-analysis of the deposited data

Results flagged for a closer look

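The 6 genes named here had ratios of members over CD8 T cells under the bound that passed 1.5-fold in opposite directions in the 2 libraries. They are not all such genes. Eomes, given above, did so too, as did Cd160, at 75.2 CPM against 117 in PBS and 55.9 against 34.8 in 6C5. The difference between the libraries was not tested, since each had 1 sample. Ccl5, a chemokine of effector T cells, had log2 ratios of -1.13 in PBS and 0.75 in 6C5. Its CPM was 2459.6 in members and 5368 under the bound in PBS, and 3874 and 2304 in 6C5. Xcl1, a chemokine that attracts dendritic cells, had -2.14 and 1.47. Crtam, an adhesion receptor of activated killer cells, had -1.05 and 1.05, and Serpinb6b, a granzyme-inhibiting serpin, -1.52 and 0.85. The hypoxia-induced genes Ndrg1 and Vegfa went the other way, with 1.14 and -1.80 for Ndrg1 and 1.43 and -1.19 for Vegfa. Without mixed cells in either class, Ccl5 (-0.95 and 1.18), Xcl1 (-1.93 and 1.99) and Crtam (-0.91 and 1.09) kept opposite signs, as did Serpinb6b (-1.53 and 0.47). Ndrg1 (0.94 and -0.12) was near 0 in 6C5, and Vegfa (2.21 and 2.97) did not turn. The 6C5 cells under the bound include 1 cell of 80254 UMIs, the highest of that class, whereas the highest in PBS had 15373.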

How the results depend on the processing

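No paired analysis was possible because each group had 1 library. Of the values of single genes and of lists outside the main results, 840 stayed within the error of the reported value (42 of them with a change of sign), 226 moved beyond it (34 with a change of sign) and 14 turned a gene past the fold bound to the other sign. The cause of a change was not tested except where fewer genes or cells entered by construction. The number of genes past the fold bound between the libraries, 908 with all members (599 higher, 309 lower), was 1974 (1295 and 679) from 30 UMIs per gene, 319 (222 and 97) from 300 UMIs, 347 (301 and 46) at 2-fold, 383 (209 and 174) without mixed cells, 468 (265 and 203) without mixed cells by a list lacking Ly6c2 and MHC class II genes, and 416 (267 and 149) without cells past the cell cycle bound after thinning. Against CD8 T cells under the bound, 1574 genes (1077 higher, 497 lower) became 354 (96 and 258) with the receptor bound read after thinning, 764 (580 and 184) from 300 UMIs, 629 (439 and 190) at 2-fold and 520 (380 and 140) without cells past the cell cycle bound, and 882 were lower from 30 UMIs. With the bound read after thinning, the share ratio was 1.22, the ratio of shares past the cell cycle bound 1.04 and the interferon median 1.91, and within Trbv5-led members that median was 1.99. The cytokine median (0.09) was 0.29 with no myeloid bound, 0.33 with 1 receptor UMI, -0.72 without mixed cells, -0.44 by the shorter list, -0.17 as a mean of per-cell CPM, 0.57 without Trbv2-led and Trbv20-led members, 0.79 within Trbv5-led members and -0.30 without cells past the cell cycle bound. Log2 ratios that reversed were Maf at -0.079 with no myeloid bound, Tnf at -0.63, Cxcl10 at -2.72 and Lilrb4a at -0.093 without mixed cells, Tnf at -0.66 and Cxcl10 at -0.22 by the shorter list, and Tnf at -0.23, Xcl1 at -0.58 and Ltf at -0.42 without cells past the cell cycle bound. Without Trbv2-led and Trbv20-led members Ccl3 was 0.017 and Ccl1 5.16, and within Trbv5-led members Ccl3 was 0.41, Ccl1 7.19 and Myc 0.072. Leaving out every cell with 3 cell cycle UMIs at full depth was not run, since it left 1 PBS member and 0 6C5 members. Depth limits genes under 100 UMIs, and free RNA, mouse and library could not be told apart from treatment.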

Other observations

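Mixed cells were defined partly by the dendritic and macrophage lists, so leaving them out lowers these markers by construction. The values are given only to show how large that part was. Dendritic markers, mostly Cd74 and H2 class II genes, summed to 0.428% of all PBS member UMIs and 0.0550% without mixed cells, and to 0.412% and 0.0191% in 6C5. Macrophage and monocyte markers went from 0.132% to 0.0640% in PBS and from 0.359% to 0.0815% in 6C5. The leading macrophage genes by UMIs were Ly6c2, Lyz2, Cd14 and C1qb in PBS and Spp1, Ly6c2, Cd14 and Apoe in 6C5. Spp1 stood at 939 CPM in 6C5 members and at 50.6 CPM without mixed cells. Whether these are pairs of cells in 1 droplet was not tested.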
